A study of Danio rerio with 2 samples.

Results

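The genes described here encode the complement system, and they were compared between livers of uninjected zebrafish larvae and livers of man1a2 morphants. Members were chosen by name: 40 symbols of complement components, regulators and the C5a receptor were looked up without regard to case in the gene name table, and 35 of the 31953 listed genes carried one of them. No gene carried the symbols c1s, c2, c6, cfi or cd59 in that form. Of the 35 genes, 32 had at least 10 reads over both libraries and were tested, and 3 (mbl2, c1qa and c5ar1) did not. The members were divided into initiation (10 genes), the C3/C4/C5 core (11 genes), the terminal pathway (6 genes) and regulators with the receptor (8 genes).

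Both groups were liver RNA of larvae at 5 days post fertilization, taken in 3 batches and combined into 1 library per group. Controls had received no injection. Morphants had been injected at the single-cell stage with a morpholino, an antisense oligonucleotide, against man1a2, which encodes a Golgi mannosidase that trims N-linked glycans. The study's methods name a translation-blocking and a splice-blocking morpholino and several transgenic reporter lines. Neither they nor the sample labels say which of these entered the sequenced pools. No control morpholino was part of the comparison, so an effect of injection and an effect of man1a2 knockdown cannot be told apart.

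In total, 19658335 counts were listed for the control library and 19783886 for the morphant library. MAN1A2 had 193 and 195 reads, a log2 ratio of -0.09 (95% interval -0.39 to 0.20), and since a morpholino blocks translation or splicing these reads are no measure of knockdown. With 1 library per group no difference had a replicate check. A gene is called lower or higher here when an exact binomial test of its reads, adjusted over all 15732 genes with at least 10 reads, gave p under 0.05 and its fold was at least 1.2. That test compares the libraries, not the conditions, and the intervals cover counting error only. In pooled tissue, fewer cells of a type and less RNA per cell cannot be told apart.

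Complement is a cascade of plasma proteins, most of them secreted by hepatocytes, that marks and lyses microbes. The classical route starts when C1q with its proteases C1r and C1s binds a surface, the lectin route when mannose-binding lectins with the MASP proteases do so, and the alternative route through factor B and factor D. All 3 routes cleave C3, whose large fragment binds covalently to the target, and then C5, whose large fragment gathers C6, C7, C8 and C9 into a membrane pore. Factor H, C1 inhibitor and other regulators keep the cascade from attacking host cells, while properdin stabilizes the alternative convertase. Bony fish carry several C3 genes in place of the single gene of mammals.

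Most complement genes had lower counts in the morphant library. Of the 32 genes tested, 20 were lower, 1 was higher and 11 were not past the test, where 13.0% of all 15732 genes tested were lower and 13.0% were higher (26.0% in either direction). Their median log2 ratio was -0.44, beside 0.01 over all genes tested. Abundant genes pass a read test more easily, so the count was also taken among genes with at least 1000 reads over both libraries. There, 17 of 22 complement genes were lower and 0 higher, beside 15.6% lower and 18.5% higher of 3387 genes. With at least 10000 reads it was 12 of 16, with 0 higher, beside 19.7% lower and 14.4% higher of 529 genes. By size alone, 6 complement genes were at least 2-fold lower (5.82% of all genes) and 2, c7a and c1qc, at least 2-fold higher (4.88% of all genes). Among them, c3a.5 (8 and 2 reads) and c1qc (4 and 13 reads) were not past the read test. With a minimum fold of 2 in that test, 5 complement genes were lower and 1 higher, beside 587 lower and 470 higher of all 15732 genes. Scaling by total counts, which moves log2 ratios up by 0.098 before the pseudocount, left 17 complement genes lower and 1 higher, with a median of -0.34 beside 0.11 over all genes. Of all genes, 9.32% were then lower and 20.2% higher (29.5% in either direction). The libraries were also scaled on a list of 37 hepatocyte genes that are not complement genes, a shift of 0.16. One of these, CPS1, had 0 control reads and could not enter the scaling factor. Under that scaling 16 complement genes were lower and 1 higher, with a median of -0.28 beside 0.17 over all genes. Of all genes, 7.53% were then lower and 25.5% higher (33.1% in either direction). By size, 5 complement genes were at least 2-fold lower under total counts and 4 under hepatocyte-gene scaling, beside 782 and 724 of all 15732 genes. The number at least 2-fold higher stayed at 2 under both, beside 911 and 995 of all genes.

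**Figure D1:**
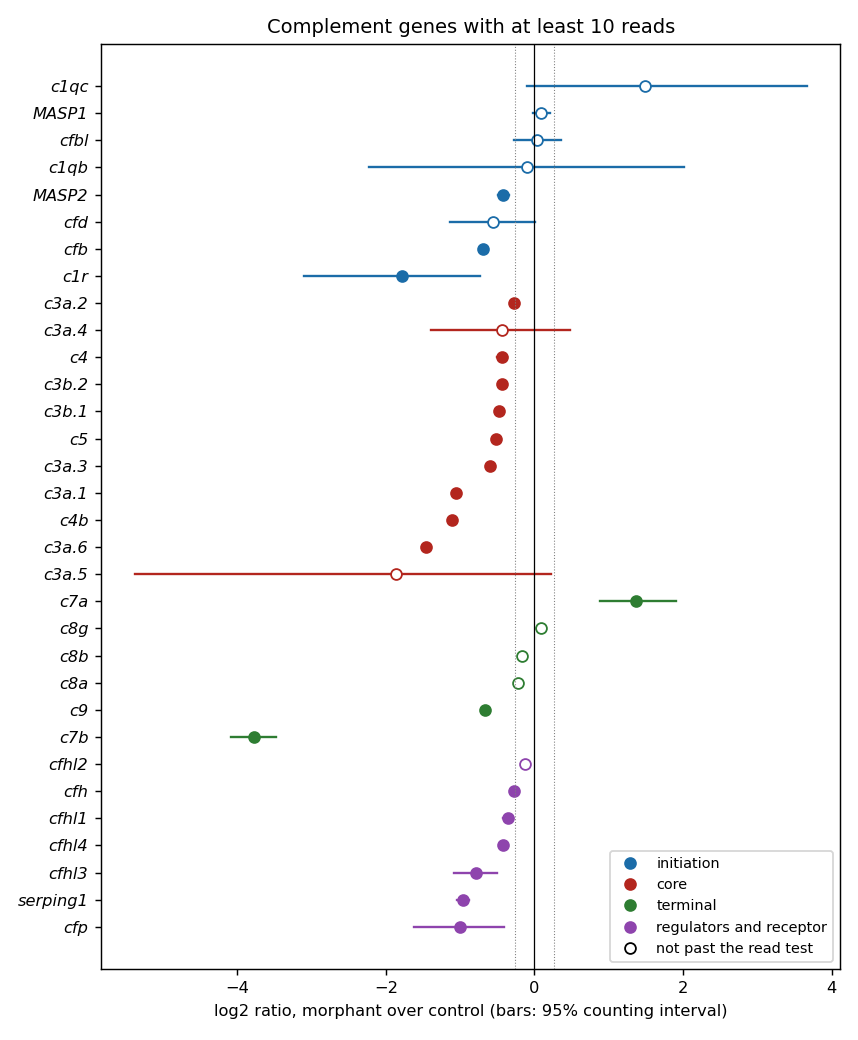
Log2 ratio of the morphant over the control normalized count for each of the 32 complement genes with at least 10 reads, by group, with bars for the 95% counting interval and dotted lines at a fold of 1.2. Filled circles passed the read test; 20 of these lie to the left of 0 and 1, c7a, to the right, and c7b lies farthest from 0 at -3.77.

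As a share of each library, complement reads went from 3.83% of control counts (752231 reads, 95% Clopper-Pearson interval 3.82% to 3.84%) to 2.67% of morphant counts (528900 reads, 2.67% to 2.68%). The morphant share was thus 0.699 of the control share. The C3/C4/C5 core went from 1.87% to 1.22%, initiation genes from 0.490% to 0.330%, terminal genes from 0.855% to 0.619% and regulators from 0.610% to 0.503%. Single genes held most reads of some groups. In the control library cfb had 91485 of 96414 initiation reads, c9 138557 of 168056 terminal reads and cfhl4 80368 of 119841 regulator reads. By gene, median log2 ratios were -0.52 for the core, -0.26 for initiation, -0.19 for terminal genes and -0.42 for regulators. Under hepatocyte-gene scaling they were -0.36, -0.11, -0.03 and -0.26. Regulators kept 0.825 of their control share and the core 0.653. Of the core's 367920 control reads, c3a.1 held 163324 and c3a.2 104078, with log2 ratios of -1.05 and -0.27. Of the drop in reads, c3a.1 made up 35.1%, c9 19.8% and cfb 13.7%. Their shares of control complement reads were 21.7%, 18.4% and 12.2%. Without c3a.1 the share still went from 2.996% to 2.24%.

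**Figure D2:**
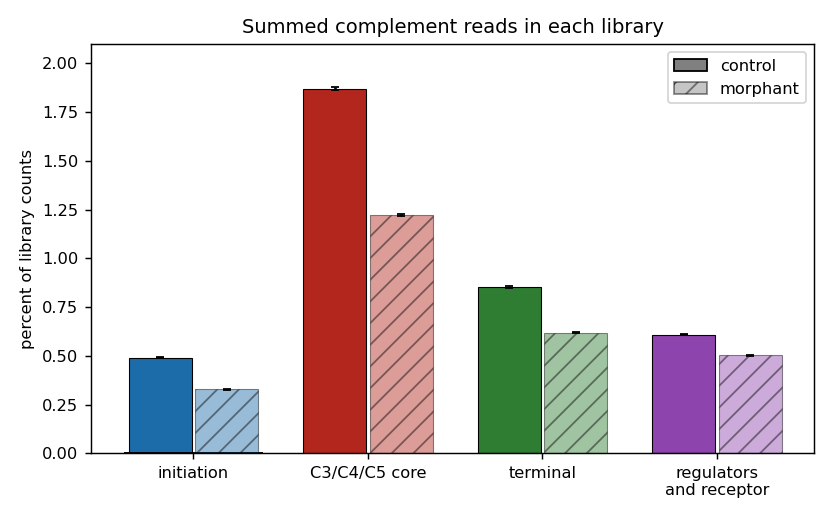
Summed reads of the complement genes in each group as a percent of all counts, in the control library (solid) and the morphant library (hatched), with Clopper-Pearson intervals. Every group takes a smaller share in the morphant library, with the core going from 1.87% to 1.22%. Most initiation reads are those of cfb and most terminal reads those of c9.

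Summed over genes encoding other plasma proteins, the shares stayed closer. Coagulation and fibrinolysis genes took 3.33% of control counts, and their morphant share was 0.963 of that. Of the 32 tested, 6 were lower and 1 higher, with a median log2 ratio of -0.12. Transport and other secreted plasma proteins, 34 genes tested, had a median of -0.13 with 11 lower and 5 higher, and their morphant share was 0.956 of the control share. Most reads of that list were those of apoa1b, tfa and apoa2 (1680048, 799736 and 589644 of 4360228 control reads). Some of its genes fell as far as genes of the complement core: hpxb (-1.26), apobb.1 (-0.92) and ahsg2 (-0.84). Others rose: apoa4a (4.89), apoeb (1.57) and IGFBP1 (0.67). In an acute-phase list, of whose 35 symbols 21 matched a gene and 20 genes were tested, 9 were lower and 4 higher, with a median of -0.17. The gene hp fell from 54 to 1 reads, mmp13a from 68 to 6 and hamp, for the iron hormone hepcidin, from 1427 to 568, while SOCS3 rose from 25 to 82, FTH1 from 132 to 301 and hpxa from 2688 to 3544. The 36 tested hepatocyte markers, from a list that shares 17 of its 40 symbols with these lists, had a median of -0.16, with 15 lower and 3 higher. Under hepatocyte-gene scaling the medians of the coagulation and secreted lists turned to 0.032 and 0.029, while those of the acute-phase list (-0.011) and the complement genes stayed below 0. The hepatocyte genes used for that scaling include genes of these comparison lists. The lists also share genes with each other. Among these, f2 is on the coagulation and secreted lists, and hpxa and hpxb are on the acute-phase and secreted lists. Without genes shared with the coagulation or acute-phase lists, 28 of the 35 matched secreted genes remained. Their median was -0.13 and their morphant share 0.950 of the control share. Both VTN genes of the secreted list and pros1 of the coagulation list are also on the list of other complement genes given below. Under the main scaling 13.0% of all genes tested were lower and 13.0% higher. No test of a list against another was made.

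**Figure D3:**
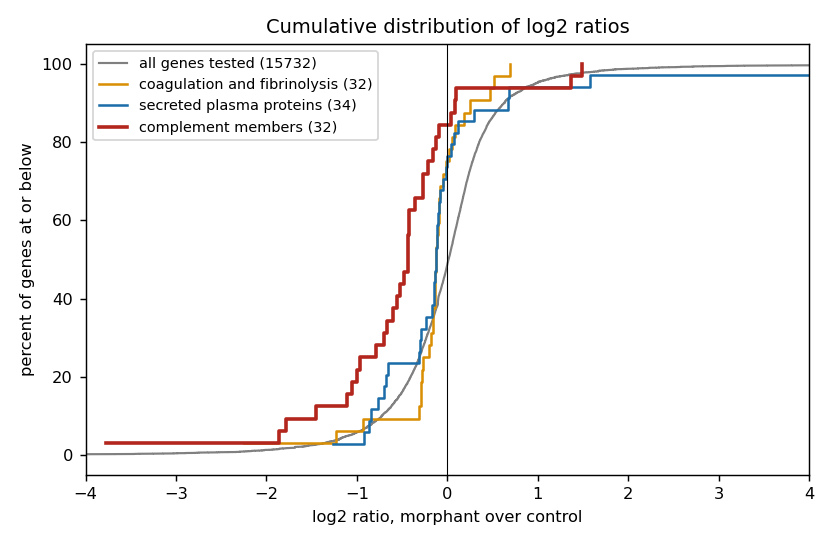
Percent of genes at or below each log2 ratio for the 32 complement genes, 32 coagulation and fibrinolysis genes, 34 secreted plasma protein genes and all 15732 genes tested. The complement line lies to the left of the others through its middle, with its median at -0.44 against -0.12 and -0.13. The axis is limited to ratios from -4 to 4, which leaves out 1 gene of the lists, apoa4a at 4.89 among the secreted plasma proteins.

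Reads of the C3 genes, which encode the protein cleaved by every route, were examined next. All 8 C3 genes had log2 ratios below 0, beside 7682 of the 15732 genes tested. By the read test 6 of the C3 genes were lower, beside 13.0% of all genes tested. The gene c3a.1 (ENSDARG00000012694) fell from 163324 to 84897 reads, a log2 ratio of -1.05 (interval -1.06 to -1.04), and its rank among all genes by reads went from 10 to 28. The gene c3a.6 (ENSDARG00000043719) fell further, from 20951 to 8243 reads, a log2 ratio of -1.45 (-1.49 to -1.42). In RefSeq's gene order c3a.6, c3a.5 and c3a.1 are direct neighbours, and c3a.5 had only 8 and 2 reads, with an interval from -5.38 to 0.22. The neighbouring pair c3a.2 and c3a.3 fell less: c3a.3 had 23223 and 16476 reads (-0.60, interval -0.63 to -0.57). For c3a.2 the reads were 104078 and 92757, a log2 ratio of -0.27 that lies just inside the fold threshold. It was not past the test under total counts (-0.18) or hepatocyte-gene scaling (-0.12).

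The c3b genes, a separate neighbouring pair, had log2 ratios with overlapping intervals. Reads of c3b.1 went from 10129 to 7848, a log2 ratio of -0.48 (interval -0.52 to -0.43), and those of c3b.2 from 11473 to 9121, a log2 ratio of -0.44 (-0.48 to -0.40). The gene c3a.4 had 24 and 19 reads, too few to detect a difference of this size. Since the C3 genes fell unequally, the make-up of C3 reads differed between the libraries. In the control library c3a.1 supplied 49.0% of the 333210 C3 reads and c3a.2 31.2%, while in the morphant library c3a.1 supplied 38.7% of 219363 and c3a.2 42.3%. The share of c3a.6 went from 6.29% (interval 6.21% to 6.37%) to 3.76% (3.68% to 3.84%). Read shares are not corrected for transcript length, and how the counting treated reads shared by C3 paralogs is not given in the sources used here, so the split between them is uncertain.

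**Figure D4:**
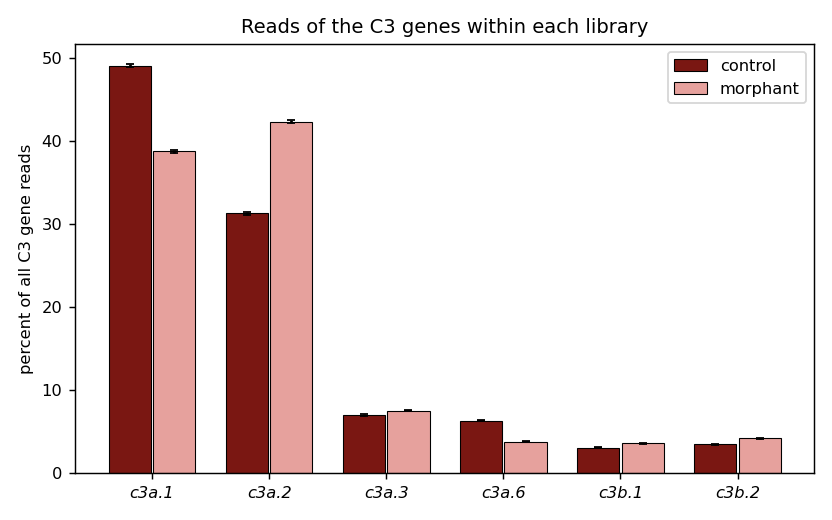
Percent of all C3 gene reads supplied by each C3 gene with more than 1% of them, in the control library (dark) and the morphant library (light), with Clopper-Pearson intervals. The share of c3a.1 goes from 49.0% to 38.7% and that of c3a.2 from 31.2% to 42.3%, so that c3a.2 leads in the morphant library.

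Of the C4 genes, whose products form the convertase of the classical and lectin routes, c4b fell more than c4. Reads of c4b (ENSDARG00000038424) went from 15297 to 7665, a log2 ratio of -1.10 (interval -1.14 to -1.06). Those of c4 (ENSDARG00000015065) went from 4511 to 3588, a log2 ratio of -0.44 (-0.50 to -0.37). The share of c4b in C4 reads was 77.2% (interval 76.6% to 77.8%) in the control and 68.1% (67.2% to 69.0%) in the morphant library. C5, the source of a leukocyte attractant and of the first protein of the pore, had 14902 and 11200 reads for c5, a log2 ratio of -0.52 (-0.56 to -0.48). Each of the 9 core genes with at least 1000 reads was lower, beside 15.6% of all genes with that many reads.

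In the initiation group, 3 of the 8 genes tested were lower and 0 higher, beside 13.0% lower and 13.0% higher of all genes tested. Under hepatocyte-gene scaling 2 were lower, beside 7.53% of all genes. Factor B, the protease of the alternative convertase, is encoded by cfb (ENSDARG00000055278), which fell from 91485 to 60812 reads, a log2 ratio of -0.70 (interval -0.71 to -0.68). Its relative cfbl had 166 and 184 reads, a log2 ratio of 0.04 (-0.27 to 0.35). Factor D, which cleaves factor B, had few reads: cfd went from 63 to 46, with an interval of -1.14 to 0.01. In the lectin route, MASP2 (ENSDARG00000007988), whose product cleaves C4, fell from 3527 to 2840 reads, a log2 ratio of -0.42 (-0.49 to -0.35). It was no longer past the test under hepatocyte-gene scaling (-0.26). MASP1 (ENSDARG00000068726) had 1131 and 1301 reads, a log2 ratio of 0.09 (-0.02 to 0.21), and 0.25 under hepatocyte-gene scaling.

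Genes of the C1 complex had few reads in these livers. The protease gene c1r (ENSDARG00000100248) fell from 30 to 9 reads, a log2 ratio of -1.79 (interval -3.10 to -0.73, exact binomial adjusted p = 0.0018). The genes c1s.1 and c1s.2, outside the naming rule and looked at after their values were seen, also fell, from 34 to 8 reads (-2.12, interval -3.52 to -1.06) and from 25 to 4 reads (-2.60, interval -4.73 to -1.22). In RefSeq's gene order c1s.2 lies next to c1r. The C1q chains, made mainly by macrophages in mammals, were not lower: c1qa had 3 and 6 reads, c1qb 5 and 5, and c1qc 4 and 13, the last with an interval of -0.10 to 3.67. At this depth no difference was detectable for them. The lectin gene mbl2 had 0 reads in both libraries, which allows up to 3 counts in each library.

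The terminal pathway held the member that changed most. C7 is the component with which the growing pore complex inserts into the membrane. Reads of c7b (ENSDARG00000057121) fell from 1220 to 96, a log2 ratio of -3.77 (interval -4.09 to -3.47), or 13.6-fold lower. This was the lowest log2 ratio of all 3387 genes with at least 1000 reads, and 42 of the 15732 genes tested had a lower one. Its paralog c7a (ENSDARG00000042172) was the only member called higher, going from 45 to 126 reads, a log2 ratio of 1.37 (0.88 to 1.90) or 2.58-fold. Together the C7 genes went from 1265 to 222 reads, and c7a supplied 3.56% (interval 2.61% to 4.73%) of them in the control and 56.8% (49.96% to 63.4%) in the morphant library. The gene c6.2, next to c7b in RefSeq's gene order, outside the naming rule and looked at after its values were seen, rose from 262 to 365 reads (0.37, interval 0.14 to 0.61), while c6.1 had 1 read in each library.

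Later components of the pore changed less. C9, whose copies form the ring of the pore, fell in reads of c9 (ENSDARG00000016319) from 138557 to 94269, a log2 ratio of -0.66 (interval -0.68 to -0.65). The C8 chains were close to level, and none reached a fold of 1.2. For c8a the reads were 10059 and 9311 (-0.22, interval -0.26 to -0.18), for c8b 11938 and 11488 (-0.16, -0.20 to -0.13), and for c8g 6237 and 7115 (0.08, 0.03 to 0.13). These intervals did not include 0. Under hepatocyte-gene scaling the log2 ratios of c8a and c8b, which are neighbours in RefSeq's gene order, were -0.06 and -0.0058.

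**Figure D5:**
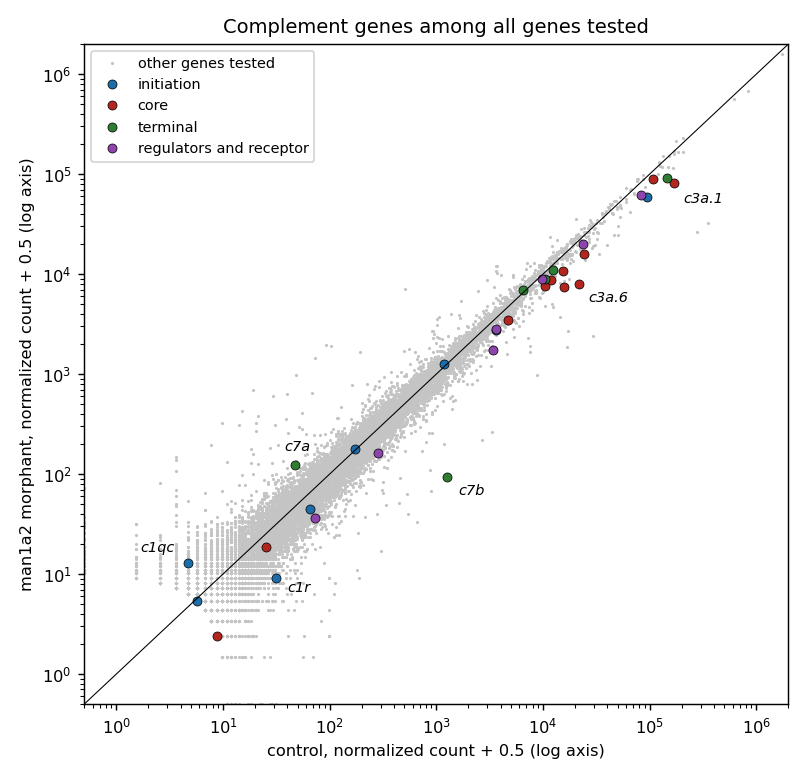
Normalized count plus 0.5 in the control library (horizontal, log axis) and the morphant library (vertical, log axis) for all 15732 genes tested (grey) and the 32 complement genes (coloured by group), with a line of equality. The complement genes with the most reads lie below the line, c7b lies far below it and c7a above it.

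Of the regulators, 6 of 7 genes tested were lower and 0 higher, beside 13.0% lower and 13.0% higher of all genes tested. Under total counts 4 were lower, beside 9.32% of all genes. Hepatocyte-gene scaling also left 4 lower, beside 7.53% of all genes. The largest falls were those of serping1 and cfp. C1 inhibitor, which blocks the C1 and MASP proteases, is encoded by serping1 (ENSDARG00000058053), and its reads fell from 3281 to 1815, a log2 ratio of -0.96 (interval -1.05 to -0.88). Properdin, which promotes rather than restrains the cascade, had few reads: cfp (ENSDARG00000094451) fell from 69 to 37, a log2 ratio of -0.997 (-1.62 to -0.41, exact binomial adjusted p = 0.0031). The receptor gene c5ar1, whose product recruits leukocytes, had 2 and 1 reads, so nothing can be said of it. The genes cd59a and cd59b, outside the naming rule and looked at after their values were seen, had 0 reads in both libraries.

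Genes of factor H, which in mammals binds host surfaces and dismantles the alternative convertase, and of its relatives fell by smaller amounts. The most read of them, cfhl4 (ENSDARG00000102456), fell from 80368 to 64704 reads, a log2 ratio of -0.42 (interval -0.44 to -0.41). For cfh the reads were 22985 and 20533 (-0.27, just inside the fold threshold) and for cfhl1 3510 and 2957 (-0.35), and neither was past the test under total counts (-0.17 and -0.26) or hepatocyte-gene scaling (-0.11 and -0.20). Reads of cfhl3 fell from 270 to 168 (-0.79, interval -1.08 to -0.51). The gene cfhl2 was not past the test, with 9356 and 9248 reads (-0.12, -0.17 to -0.08). In RefSeq's gene order cfhl5, cfhl4, cfh, cfhl1, cfhl2 and cfhl3 follow each other without another protein-coding gene between them. Their ratios in that order were -0.51, -0.42, -0.27, -0.35, -0.12 and -0.79.

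Other genes of the complement pathway came from a list of 38 symbols, of which 20 matched a gene. Of the 18 genes tested, 5 were lower, 2 higher and 11 not past the test, beside 13.0% lower and 13.0% higher of all genes tested. The median log2 ratio was -0.085, and it turned to 0.014 under total counts and 0.072 under hepatocyte-gene scaling. Summed, the list went from 0.308% of control counts to 0.318% of morphant counts, or 1.03 of the control share. The VTN genes supplied 22076 and 15071 of its 60585 control reads. By size, 4 of the 18 were at least 2-fold lower (5.82% of all genes) and 1 at least 2-fold higher (4.88% of all genes). The difference from the members was not tested. Among the lower genes, rca2.2 fell from 300 to 71 reads (-2.18, interval -2.58 to -1.81), while its neighbour rca2.1 had 939 and 943 (-0.10, -0.23 to 0.03); the RCA genes of zebrafish are named for regulators of complement activation. The lectin genes hbl4 and hbl2 fell from 1889 to 1273 (-0.68) and from 31 to 10 reads (-1.69). The higher genes were CLU, for the chaperone clusterin, with 2 and 25 reads (interval 1.53 to 6.66), and C1QBP, for a mainly mitochondrial protein named after C1q, with 1855 and 2738 reads (0.45). The genes named VTN, for vitronectin, had 22076 and 22943 reads and 15071 and 16099 reads, with log2 ratios of -0.05 and -0.01.

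Markers of some other cells also differed between the libraries, in which 13.0% of all genes tested were lower and 13.0% higher. Of 19 tested macrophage markers, 10 were lower and 0 higher, and their summed reads went from 9245 to 5543. MFAP4 (ENSDARG00000090557) fell from 2573 to 226 reads and lygl1 from 1125 to 206, while cd68 had 3839 and 3816, and timd4 was at 0 in both. Of the other entries named MFAP4, ENSDARG00000089667 fell from 208 to 38 reads and ENSDARG00000090783 from 25 to 8. ENSDARG00000088745 had 74 and 90, and the rest were at 0 in both. All 9 tested neutrophil markers were lower (7 under hepatocyte-gene scaling), with 746 and 392 reads in all. Among these, mmp13a is also on the acute-phase list. Exocrine pancreas markers went from 844 to 12029 reads, with 16 of 17 tested genes higher, and epidermis markers from 3044 to 4937, with 9 of 16 higher. Stellate markers had 7 of 14 tested genes higher and 0 lower, and skeletal muscle markers 3 of 6 higher and 0 lower. Of 16 tested erythroid markers, 7 were lower and 1 higher. Endothelium markers had 5 of 21 lower and 3 higher, biliary markers 2 of 19 lower and 2 higher, and enterocyte markers 3 of 12 lower and 1 higher. The part of these cells in the complement values was not tested. Hepatocyte markers took 23.5% of control counts, and the morphant share was 0.963 of that, whereas the complement share was 0.699.

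Spread between pools does not enter the read test. When edgeR's exact test was given a coefficient of variation of 0.2 in its place, 2 complement genes were lower and 0 higher, where 0.680% of all genes were lower and 0.718% higher. These were c7b (adjusted p = 2.1e-12 by edgeR's exact test) and c3a.6 (adjusted p = 0.0393), while c3a.1 (0.325), c4b (0.262) and c7a (0.190) were not past it. Using the blind dispersion, which treats both libraries as 1 group, 3 were lower and 0 higher, where 0.356% of all genes were lower and 0.388% higher. The 3 were c7b, c3a.6 and c4b (adjusted p = 0.0401 by edgeR's exact test). At a coefficient of 0.4, c7b alone was lower (adjusted p = 0.0296 by edgeR's exact test) and 0 were higher, where 0.121% of all genes were lower and 0.153% higher.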

How the data were processed

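Poly-A RNA of pooled livers was sequenced as 1 strand-specific library per group. The authors deposited raw counts per Ensembl gene for each library. The submitters' processing notes list GRCz10, FastQC and DESeq2. The aligner, the counting program, the annotation and the handling of reads shared by several genes are not given in the sources used here. Symbols came from a name table that covered 81.7% of the gene IDs, and gene order came from RefSeq's GRCz12tu, without coordinates. The members and lists were chosen with earlier results of these data known. Sequences were not used here.

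Counts were scaled with the size factors of DESeq2 1.42.0 (R 4.3.3). A log2 ratio is morphant over control with a pseudocount of 0.5, while intervals (95%, Clopper-Pearson) carry none. With 1 library per group, edgeR's quasi-likelihood test and DESeq2's test could not be fitted, so reads were compared by a 2-sided exact binomial test with Benjamini-Hochberg adjustment over 15732 genes. Its thresholds, an adjusted p under 0.05 and a fold of 1.2, are those of the study. The scripts were tested on simulated data. Alternatives were TMM, upper-quartile, total-count and hepatocyte-gene scaling, minimums of 1 and 100 reads, a minimum fold of 2, thinning to equal totals, and the exact test of edgeR 4.0.16 with assumed or blind dispersions. PCR copies are not independent molecules. All members are accounted for, and from other lists at most 3 genes a direction are named by the bound of the interval nearest 0. Exceptions, named after their values were seen, were cd68, timd4, rca2.1, cfhl5, VTN, apoa1b, tfa, apoa2 and CPS1. So were MFAP4 entries other than ENSDARG00000090557 and ENSDARG00000089667, and the near-matches c1s.1, c1s.2, c6.1, c6.2, cd59a and cd59b. The genes f2 and pros1 were named to show the overlap of lists.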

Additional observations from a re-analysis of the deposited data

How the results depend on the processing

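No paired analysis was possible because a single library stood for a group, and none could be left out. The number of complement genes past the read test was 21 in the main comparison and 17 to 21 under the other scalings, read minimums and thinning. At a minimum fold of 2 it was 6, under edgeR's exact test it was 2 and 1 at coefficients of 0.2 and 0.4, and with the blind dispersion it was 3. Over all genes the number went from 4089 to 1057, 220, 43 and 117 under the same settings. Of the 4089 calls, 2044 were higher in the main comparison, against 68.4% of calls under total counts and 77.2% under hepatocyte-gene scaling. The median log2 ratio of the complement genes moved from -0.44 to -0.34 under total counts and -0.28 under hepatocyte-gene scaling. Leaving out c3a.1 moved the complement share from 3.83% to 2.996% in the control library and from 2.67% to 2.24% in the morphant library. Under hepatocyte-gene scaling the log2 ratios of c1qb (0.045) and cfhl2 (0.033), neither past the test, turned above 0, and 4 members lost their call, 3 of which also did so under total counts. TMM and upper-quartile factors changed no call or direction of the 32 members tested. Genes with few reads, such as the C1q chains, c3a.4, c3a.5 and cfd, are limited by depth.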
